A study of Mus musculus with 24 samples.

Results

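The change that the CAR agonist TCPOBOP made in mouse liver was compared between adults and newborns, in the 12 wild type libraries of the 24 in the series. These libraries form 4 groups of 3: day 60 TCPOBOP, day 60 corn oil, day 5 TCPOBOP and day 5 corn oil. All are RNA of C57BL/6 livers labelled wild type, corn oil is the vehicle, and the age is that of the pups or adults after birth. The labels give no dose, no interval between dosing and collection and no sex. They do not say whether the replicates are separate animals. The p-values thus weigh differences only against the scatter within groups, taken over all 24 libraries of the series, and this scatter may be technical. Levels are in FPKM (fragments counted per transcript length and library size). The response is the TCPOBOP minus the corn oil level on the log2(FPKM + 1) scale, and the response difference is the day 60 response minus the day 5 response. A gene was called at a limma adjusted p under 0.05 over the 12282 genes tested.

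CAR, the constitutive androstane receptor encoded by Nr1i3, is a nuclear receptor of hepatocytes. Once activated it enters the nucleus, pairs with RXR and raises genes for P450 enzymes, conjugating enzymes and drug transporters. In adult rodents CAR agonists also make the liver grow and hepatocytes divide. Newborn liver is still growing and forming blood cells, and many enzymes of the adult organ have yet to reach their adult level.

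The libraries had FPKM totals of 446595 to 496626 and relative depths of 0.881 to 1.067, while the absolute depth is unknown because the files hold no counts. On the first principal component, with 68.8% of the variance over the 12 libraries, and the second, with 20.4%, the libraries grouped by age and by ligand. Hepatocyte markers summed to 42232 to 45427 FPKM in day 60 TCPOBOP livers and 62375 to 72916 FPKM in day 60 corn oil livers. They summed to 92607 to 98481 FPKM in day 5 TCPOBOP livers and 113968 to 121575 FPKM in day 5 corn oil livers, so the label of liver fits the markers in every library. Pancreatic acinar markers, summed without the TCPOBOP-responsive gene Pnliprp1, reached 488 FPKM in day 5 TCPOBOP replicate 2 and 360.9 FPKM in day 5 corn oil replicate 2, against 17.8 to 48.5 FPKM in the other newborn libraries and 4.91 to 12.4 FPKM in adults. Counts without these replicates (and without 1 newborn library of hCAR-TG, the other genotype of the series, which was alike) are given for the totals over all genes and for lists that moved by over 1.5 times. A number closing the names of the read files differs between all day 5 TCPOBOP and all day 5 corn oil libraries. Its meaning is not stated, and at day 5 it cannot be told apart from the treatment. In whole tissue, fewer cells of a type and less RNA per cell cannot be told apart.

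More genes passed the test of TCPOBOP against corn oil in adults than in newborns, and for 2879 of the 12282 genes (23.4%) the response itself differed between the ages. It was higher at day 60 for 1680 genes (13.7%) and lower for 1199 (9.76%), and the difference was at least 2-fold for 342 and 192 of them. At day 60 TCPOBOP raised 3855 genes (31.4%) and lowered 1946 (15.8%), in all 5801 (47.2%). At day 5 it raised 3022 (24.6%) and lowered 1386 (11.3%), in all 4408 (35.9%). These shares over all genes are the background for the counts of called members in every list below. Among the 2982 genes called at both ages, 2788 moved in the same direction and 194 in opposite directions. Without the libraries with pancreatic transcripts, 2165 genes had a called response difference, with 778 lower at day 60, 3038 were called at day 5 and 124 had opposite calls. The opposite calls numbered 524 with array weights and 4 where each call also needed a 2-fold difference. Across the tested genes the responses at the 2 ages, which share no library, had a Pearson correlation of 0.585 and a Spearman correlation of 0.561. This describes genes, which are not independent replicates.

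The 2879 genes fall into several kinds. Called at day 60 alone were 1330, of which 853 were raised and 477 lowered, and called at day 5 alone were 545, with 328 raised and 217 lowered. In 589 genes the change had the same direction at both ages and was larger at day 60, and in 164 it was larger at day 5. Of the 194 genes with opposite calls, 85 were raised at day 60 and lowered at day 5, and 109 were lowered at day 60 and raised at day 5. The other 57 were called at neither age alone. A response cannot be seen where a gene is silent. Both day 5 groups averaged under 1 FPKM for 150 of the 2879 genes, against 557 of all 12282 tested. Both day 60 groups did so for 245 of the 2879, against 1423 of all 12282.

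**Figure D1:**
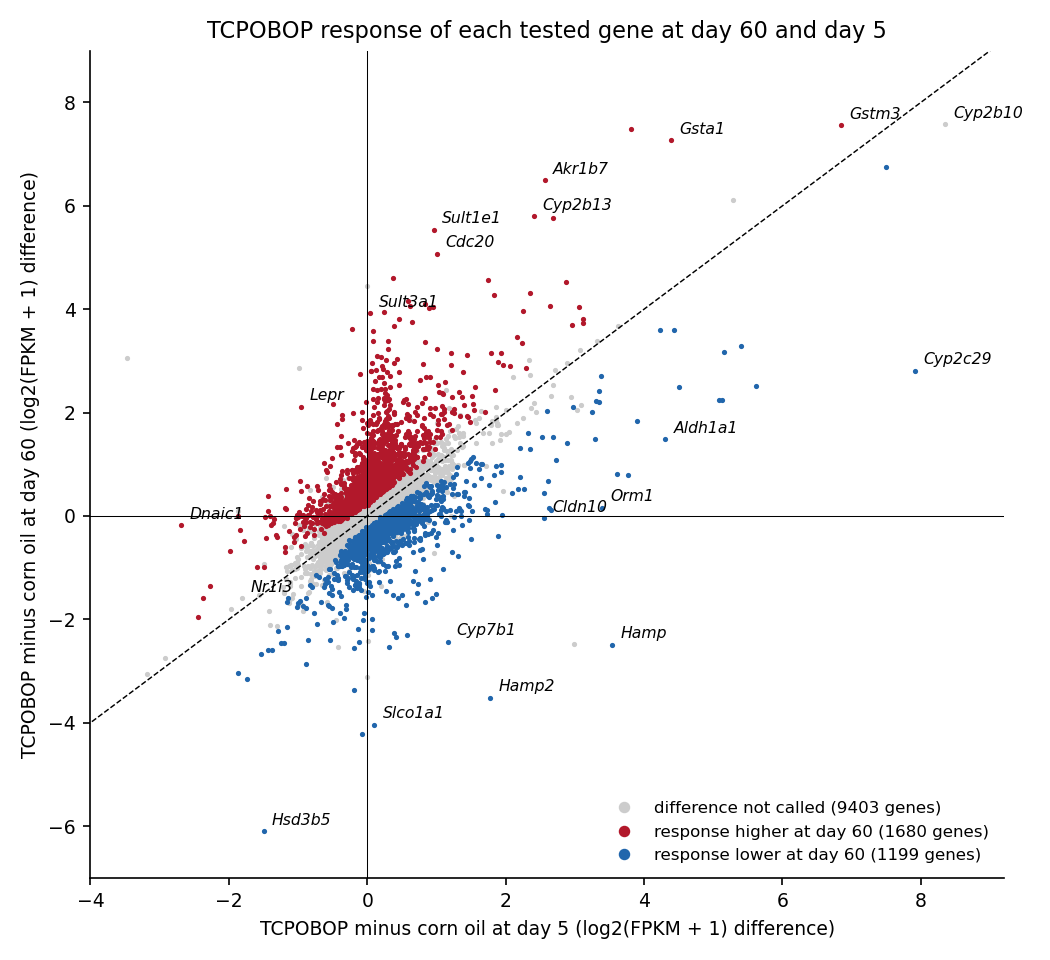
TCPOBOP response of each tested gene at day 60 (vertical axis) and at day 5 (horizontal axis), both as log2(FPKM + 1) differences from corn oil, with the dashed line marking equal responses. Red genes (1680) had a higher and blue genes (1199) a lower response at day 60. Cyp2b10 lies close to the line, Sult1e1 and Cdc20 far above it, and Cyp2c29 and Hamp far below it.

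The canonical CAR readouts were raised at both ages, and several had no called response difference. Cyp2b10, the P450 gene most used to read CAR activity (chr7:25897658-25926624, mm10), stood at 2760, 2625 and 2404 FPKM in day 60 TCPOBOP livers, against 9.31, 11.89 and 17.45 FPKM with corn oil. At day 5 it stood at 1636, 1788 and 1658 FPKM with TCPOBOP, against 3.30, 5.57 and 3.92 FPKM with corn oil. The groups did not overlap at either age, the log2 response was 7.59 at day 60 and 8.35 at day 5, and the response difference of -0.77 ± 0.36 (SE) was not called (adjusted p = 0.144). Nr1i3, the receptor gene itself (chr1:171213970-171218845, mm10), fell at both ages, by 1.59 at day 60 and by 1.81 at day 5 on the log2 scale, with a response difference of 0.22 ± 0.26 (adjusted p = 0.599). Nr1i2, which encodes the related receptor PXR, rose at day 60 (0.50) and was not called at day 5 (0.23), although its response difference was not called either (0.26 ± 0.16, adjusted p = 0.25). Gstm1, a glutathione S-transferase, had responses of 3.67 and 3.62 at day 60 and day 5, and Ugt1a1, the bilirubin conjugating enzyme, of 1.30 and 1.21, with response differences of 0.05 and 0.09 that were not called. Por, which passes electrons to P450 enzymes, had a response difference of 0.59 ± 0.21 that missed the threshold (adjusted p = 0.0512) and passed it in 5 of the 22 alternative settings. Ephx1, microsomal epoxide hydrolase, likewise missed it with -0.34 ± 0.12 (adjusted p = 0.055) and passed it in 7.

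Of 48 tested genes of a list of CAR targets of adult liver, TCPOBOP raised 47 at day 60 and 45 at day 5, and it lowered 0 at day 60 and 1 at day 5. Their median log2 response was 2.22 at day 60 and 2.42 at day 5, against 0.06 and 0.04 over all genes. The response was higher in adults for 11 of them and lower for 17, with a median response difference of -0.28, against 0.03 over all genes. Their starting level differed: the median member stood 1.43 higher on the log2 scale in day 60 than in day 5 corn oil livers, and 0.80 higher in day 60 than in day 5 TCPOBOP livers. Reads shared among close relatives (the Cyp2b, Cyp2c, Cyp3a, Gstm, Gsta, Sult2a, Mup and Hamp genes and the globins) make the values of their single members uncertain here and below.

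Some classical targets had a smaller response and a higher corn oil level in adults, and whether these are linked was not tested. The clearest case was Cyp2c29, a P450 of the CYP2C family (chr19:39287085-39330713, mm10). Its level was 6914, 6612 and 6263 FPKM in day 60 TCPOBOP livers, against 771, 1031 and 1035 FPKM with corn oil. At day 5 it was 6382, 6397 and 6531 FPKM with TCPOBOP, against 40.1, 39.1 and 10.35 FPKM with corn oil. TCPOBOP livers thus reached nearly the same level at both ages, while the corn oil groups differed widely, and the response difference was -5.11 ± 0.55 (adjusted p = 1.68e-06). Cyp2c54, a close relative, had a response difference of -2.88 ± 0.53 (adjusted p = 0.000582).

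A second pattern was a larger relative rise in newborns to a level that stayed below that of adults. Aldh1a1, which oxidises retinaldehyde, stood at 1546, 1476 and 1627 FPKM in day 60 TCPOBOP livers, against 495, 597 and 570 FPKM with corn oil. In newborns it stood at 102.5, 114.5 and 92.6 FPKM with TCPOBOP, against 3.24, 3.90 and 5.98 FPKM with corn oil, and the response difference was -2.82 ± 0.26 (adjusted p = 9.31e-08). Even with TCPOBOP each newborn library lay below each adult corn oil library. Cyp3a11, which in adults is the major CYP3A gene, averaged 13580 ± 1120 FPKM in day 60 TCPOBOP and 3368 ± 242 FPKM in day 60 corn oil livers (SD, n = 3 each). In newborns it averaged 3495 ± 179 FPKM with TCPOBOP and 369 ± 59.6 FPKM with corn oil, a response difference of -1.24 ± 0.16 (adjusted p = 5.99e-06). Responses were also smaller in adults for Aldh1a7 (-3.10 ± 0.24), the bile acid and conjugate export pump gene Abcc3 (-2.06 ± 0.17), Gstt3 (-1.98 ± 0.37) and Cyp1a2 (-0.99 ± 0.17). Abcc3, for example, reached 208, 201 and 166 FPKM in day 60 TCPOBOP livers against 43.7, 56.3 and 59.2 FPKM with corn oil, and 138, 156 and 144 FPKM in day 5 TCPOBOP livers against 9.16, 9.16 and 8.17 FPKM with corn oil.

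Over 60 tested P450 genes of families 1 to 4 the response was lower at day 60 for 36 and higher for 8 (median -0.75). Over all genes it was lower for 9.76% and higher for 13.7%. The list moved both ways in adults, with 30 raised and 24 lowered, and mostly up in newborns, with 36 raised and 3 lowered. For 7 P450 genes the calls were opposite: Cyp2c38, Cyp2c40, Cyp2c67, Cyp2c69, Cyp2e1, Cyp2f2 and Cyp2j5 were lowered at day 60 and raised at day 5. Cyp2e1, which oxidises ethanol and other small molecules, stood at 948, 839 and 1047 FPKM in day 60 TCPOBOP livers, against 2532, 3705 and 3202 FPKM with corn oil. At day 5 it stood at 1800, 2129 and 1857 FPKM with TCPOBOP, against 1314, 1252 and 1334 FPKM with corn oil, and the response difference was -2.29 ± 0.15 (adjusted p = 7.13e-10). The groups did not overlap at either age. Cyp2c67 averaged 24.5 ± 4.11 FPKM in day 60 TCPOBOP and 146 ± 6.84 FPKM in day 60 corn oil livers, and 38.5 ± 4.38 and 30.8 ± 3.29 FPKM in day 5 TCPOBOP and corn oil livers (SD, n = 3 each), a response difference of -2.85 ± 0.17 (adjusted p = 1.13e-10). Of 59 other phase I enzymes, 24 had a lower and 10 a higher response in adults. Among 24 glutathione S-transferases 7 had a higher and 7 a lower response, and the lower ones were 3 without the libraries with pancreatic transcripts and 4 in each of 4 fits that left out 1 library (day 5 corn oil replicate 1 or 2, day 5 TCPOBOP replicate 2, day 60 TCPOBOP replicate 3).

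Conjugating enzymes and antioxidant genes held called differences in both directions. Of 19 tested glucuronosyltransferase genes 6 had a lower and 3 a higher response in adults, against 9.76% and 13.7% of all genes. Ugt2a3 stood at 60.5, 60.0 and 68.8 FPKM in day 60 TCPOBOP livers against 110.9, 108.2 and 108.3 FPKM with corn oil, and at 23.8, 23.1 and 25.8 FPKM in day 5 TCPOBOP livers against 9.67, 8.86 and 8.90 FPKM with corn oil. It thus fell in adults and rose in newborns (-2.10 ± 0.10, adjusted p = 1.38e-11), as did Ugt1a6b (-0.79 ± 0.11). Of 17 sulfotransferases 4 had a lower and 3 a higher response, and of 19 NRF2 targets, which answer oxidative stress, 2 had a lower and 6 a higher one. The higher counts of both conjugating lists and the lower count of the NRF2 list are near the shares over all genes. TCPOBOP raised 16 of the 19 NRF2 targets at each age. Srxn1, which repairs oxidised peroxiredoxins, had 64.4, 61.5 and 50.01 FPKM in day 60 TCPOBOP livers against 10.94, 11.53 and 10.42 FPKM with corn oil, and 23.6, 22.0 and 26.8 FPKM in day 5 TCPOBOP livers against 9.23, 8.51 and 8.34 FPKM with corn oil (0.94 ± 0.12, adjusted p = 6.42e-06). Corn oil levels were alike at the 2 ages here and the adult TCPOBOP group was the highest. Pgd, of the pentose phosphate pathway, also rose more in adults (1.59 ± 0.14).

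Other targets responded more strongly in adults, and several of these are known as genes of female liver. Sult1e1, estrogen sulfotransferase (chr5:87575968-87591611, mm10), had 79.9, 48.7 and 35.9 FPKM in day 60 TCPOBOP livers, against 0.217, 0.089 and 0.109 FPKM with corn oil. Newborn livers had 1.03, 0.713 and 1.26 FPKM with TCPOBOP, against 0.043, 0.025 and 0 FPKM with corn oil. It was raised at both ages, and the response difference was 4.58 ± 0.31 (adjusted p = 1.31e-09). With a pseudocount of 0.1 it was 4.66, below the 6.22 of Sult3a1. Sult3a1, another sulfotransferase, reached 11.53, 14.6 and 21.5 FPKM in day 60 TCPOBOP livers and was at most 0.230 FPKM with corn oil. In newborns it was at most 0.074 FPKM with TCPOBOP and listed at 0 in all 3 corn oil libraries, so the gene stayed near silence at day 5 (response difference 3.88 ± 0.18, adjusted p = 6.3e-12).

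Akr1b7, an aldo-keto reductase, differed in its starting level in the other direction. It stood at 136, 115 and 101 FPKM in day 60 TCPOBOP livers, against 0.195, 0.203 and 0.550 FPKM with corn oil, and at 302, 321 and 340 FPKM in day 5 TCPOBOP livers, against 59.9, 61.3 and 41.2 FPKM with corn oil. Newborn corn oil livers already expressed it, and the response difference was 3.93 ± 0.29 (adjusted p = 5.68e-09). Corn oil levels were likewise higher in newborns than in adults for Cyp2b13 and Cyp2b9, P450 genes of female and young liver. Cyp2b13 had 102.4, 105.4 and 104.1 FPKM in day 60 TCPOBOP livers against 0.256, 0.744 and 2.01 FPKM with corn oil, and 81.4, 91.8 and 89.9 FPKM in day 5 TCPOBOP livers against 15.35, 13.8 and 17.9 FPKM with corn oil (response difference 3.39 ± 0.27, adjusted p = 1.19e-08). Cyp2b9 was raised in adults, to 73.3, 104 and 89.6 FPKM against 0.580, 9.37 and 22.1 FPKM with corn oil, and not called in newborns, with 115.5, 137.5 and 113 FPKM against 130.2, 133.1 and 162 FPKM (3.84 ± 0.82, adjusted p = 0.00229). Its adult corn oil libraries were far apart, and the response difference ran from 2.74 to 4.67 over the alternative settings. Gsta1, an alpha class glutathione S-transferase, had 1276, 1194 and 1047 FPKM in day 60 TCPOBOP livers against 4.75, 5.70 and 10.13 FPKM with corn oil, and 23.2, 26.6 and 23.4 FPKM in day 5 TCPOBOP livers against 0.110, 0.308 and 0.202 FPKM with corn oil. Its response difference of 2.88 ± 0.26 was 1.10 with a pseudocount of 0.1, since the day 5 corn oil level lies under 1 FPKM.

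In a list of 20 tested female-biased liver genes the response was higher in adults for 15 and lower for 1 (Hamp), and the median response difference was 1.20. Adults raised 13 and lowered 4 of them, and newborns raised 9 and lowered 6. Of the genes above, Sult1e1, Sult3a1, Cyp2b13 and Cyp2b9 belong to it, and it also holds Hao2, a peroxisomal hydroxyacid oxidase (1.87 ± 0.11), Cyp3a16 (2.17 ± 0.22) and the membrane glycoprotein gene Prom1 (1.73 ± 0.25). With a pseudocount of 0.1 the values were 6.22 for Sult3a1, 4.41 for Hao2 and 3.28 for Prom1. Sult2a1, a bile acid sulfotransferase of the same list, was not called at -0.43 ± 0.25 but was called higher in adults at 2.33 with that pseudocount, because its adult corn oil libraries lie at or below 0.007 FPKM. For genes this low the direction rests on the scale. The labels give no sex, and whether the groups differed in sex was not tested, for this list or the male-biased list below.

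Among 23 tested male-biased liver genes the response was lower in adults for 12 and higher for 0 (median -1.08). Adults lowered 18 and raised 1, and newborns lowered 6 and raised 4, but 7 of the 23 averaged under 1 FPKM in both newborn groups. Hsd3b5, a steroid dehydrogenase of male liver, fell to 0.240, 0.259 and 1.78 FPKM in day 60 TCPOBOP livers, against 163, 111 and 75.1 FPKM with corn oil. In newborns it was at 0.081, 0.198 and 0.082 FPKM with TCPOBOP, against 3.71, 2.42 and 0.962 FPKM with corn oil, so it fell at both ages with a response difference of -4.60 ± 0.45 (adjusted p = 4.19e-07). Slco1a1, an uptake transporter of organic anions, fell in adults to 4.83, 3.63 and 9.36 FPKM against 119, 123 and 82.0 FPKM with corn oil, and was at most 0.416 FPKM in each newborn library (-4.14 ± 0.29, adjusted p = 2.04e-09). Nudt7, a peroxisomal hydrolase of coenzyme A, is expressed at both ages. It had 69.4, 84.6 and 112 FPKM in day 60 TCPOBOP livers against 673, 456 and 439 FPKM with corn oil, and 16.5, 18.4 and 18.3 FPKM in day 5 TCPOBOP livers against 17.1, 18.5 and 26.5 FPKM with corn oil (-2.36 ± 0.24, adjusted p = 3.64e-07).

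**Figure D2:**
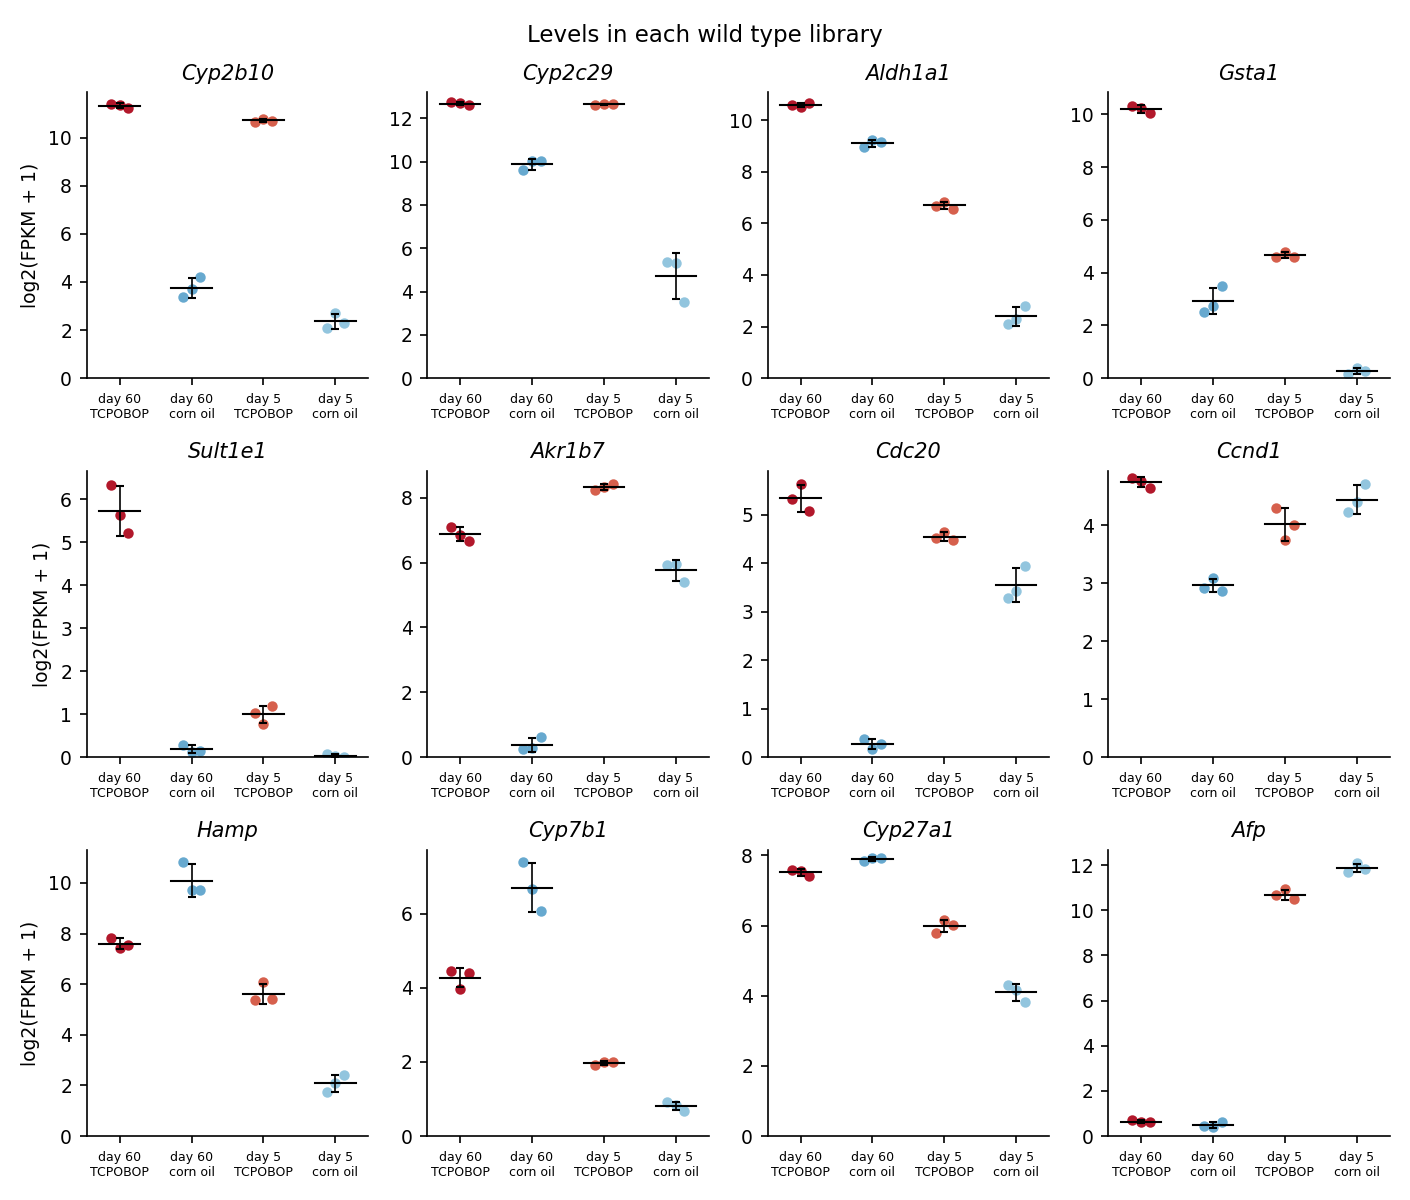
Level of 12 genes in each wild type library, as log2(FPKM + 1), for day 60 TCPOBOP, day 60 corn oil, day 5 TCPOBOP and day 5 corn oil livers (3 points each, with the mean as a bar and the SD as an error bar). Cyp2c29 reached like levels with TCPOBOP at both ages while its corn oil groups differed, Cdc20 was low in adult corn oil livers alone, and Hamp and Cyp7b1 moved in opposite directions at the 2 ages.

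Cell division genes made the most uniform group. All 50 tested genes of a mitosis and cytokinesis list had a higher response in adults, with a median response difference of 1.99. In adults TCPOBOP raised all 50 (median response 2.22), and in newborns it raised 13, lowered 1 and left 36 uncalled (median 0.23). The median gene had 5.41 FPKM in day 60 TCPOBOP livers and 0.174 FPKM in day 60 corn oil livers, against 6.13 FPKM in day 5 TCPOBOP livers and 4.74 FPKM in day 5 corn oil livers. Adult corn oil livers lay below newborn corn oil livers without overlap for all 50 genes, against 5833 of the 12282 genes tested. Adult TCPOBOP livers averaged below newborn TCPOBOP livers for 27 of the 50, against 7141 of the 12282. This last count is thus near the share over all genes.

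Cdc20, an activator of the anaphase promoting complex (chr4:118432901-118437343, mm10), showed this clearly. It had 39.1, 48.7 and 32.7 FPKM in day 60 TCPOBOP livers, against 0.294, 0.121 and 0.207 FPKM with corn oil. In newborns it had 21.9, 24.2 and 21.5 FPKM with TCPOBOP, against 8.72, 9.75 and 14.5 FPKM with corn oil, and it was raised at both ages (response difference 4.07 ± 0.24, adjusted p = 1.68e-10). Ube2c, the ubiquitin-conjugating enzyme of the same complex, rose in adults, to 20.0, 21.5 and 15.8 FPKM against 0.378, 0.353 and 0.155 FPKM with corn oil. Its newborn groups overlapped, with 21.7, 20.5 and 18.5 FPKM with TCPOBOP and 13.5, 15.2 and 23.2 FPKM with corn oil (3.70 ± 0.21, adjusted p = 9.59e-11). Cdk1, the kinase that drives entry into mitosis, averaged 8.69 ± 0.925 FPKM in day 60 TCPOBOP and 0.286 ± 0.0847 FPKM in day 60 corn oil livers, and 9.53 ± 0.116 and 8.14 ± 1.63 FPKM in day 5 TCPOBOP and corn oil livers (SD, n = 3 each), a response difference of 2.69 ± 0.13 (adjusted p = 1.38e-11, and 4.28 with a pseudocount of 0.1).

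Promoters of such genes are known to carry CCAAT boxes and, near the start, a cell cycle homology region. For these 3 genes, all of them among the 13 of 43 list members with TTTGAA, the 250 bases before the first start that RefSeq lists (GRCm38.p6) are shown 5′ to 3′ on the gene's strand: Cdc20 (chr4:118437344-118437593, minus strand), Ube2c (chr2:164769679-164769928, plus strand) and Cdk1 (chr10:69352913-69353162, minus strand). Capitals mark TTTGAA and CCAAT on either strand, so also TTCAAA and ATTGG.
Cdc20: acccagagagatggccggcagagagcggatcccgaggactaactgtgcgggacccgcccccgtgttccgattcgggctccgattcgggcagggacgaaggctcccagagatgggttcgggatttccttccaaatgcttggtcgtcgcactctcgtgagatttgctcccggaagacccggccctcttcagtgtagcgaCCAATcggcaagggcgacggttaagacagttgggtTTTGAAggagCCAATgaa
Ube2c: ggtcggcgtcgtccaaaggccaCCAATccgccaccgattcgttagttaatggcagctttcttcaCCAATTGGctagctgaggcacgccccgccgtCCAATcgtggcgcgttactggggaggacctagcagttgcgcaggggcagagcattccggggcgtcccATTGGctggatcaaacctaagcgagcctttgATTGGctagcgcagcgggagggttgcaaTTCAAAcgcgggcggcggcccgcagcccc
Cdk1: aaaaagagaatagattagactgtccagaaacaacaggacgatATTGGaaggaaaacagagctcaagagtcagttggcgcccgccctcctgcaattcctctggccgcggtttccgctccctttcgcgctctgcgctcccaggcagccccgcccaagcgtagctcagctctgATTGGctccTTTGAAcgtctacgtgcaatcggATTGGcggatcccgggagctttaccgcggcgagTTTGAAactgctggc
The nearest TTTGAA match ended 13 bases before the start in Cdc20, 24 in Ube2c and 10 in Cdk1. TTTGAA was found in this window in 13 of 43 list members with a RefSeq promoter (30.2%) and in 16.3% of 27025 genes, and CCAAT in 31 of 43 (72.1%) and 34.5%. These counts describe letters in a window and do not show that a factor binds there.

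**Figure D3:**
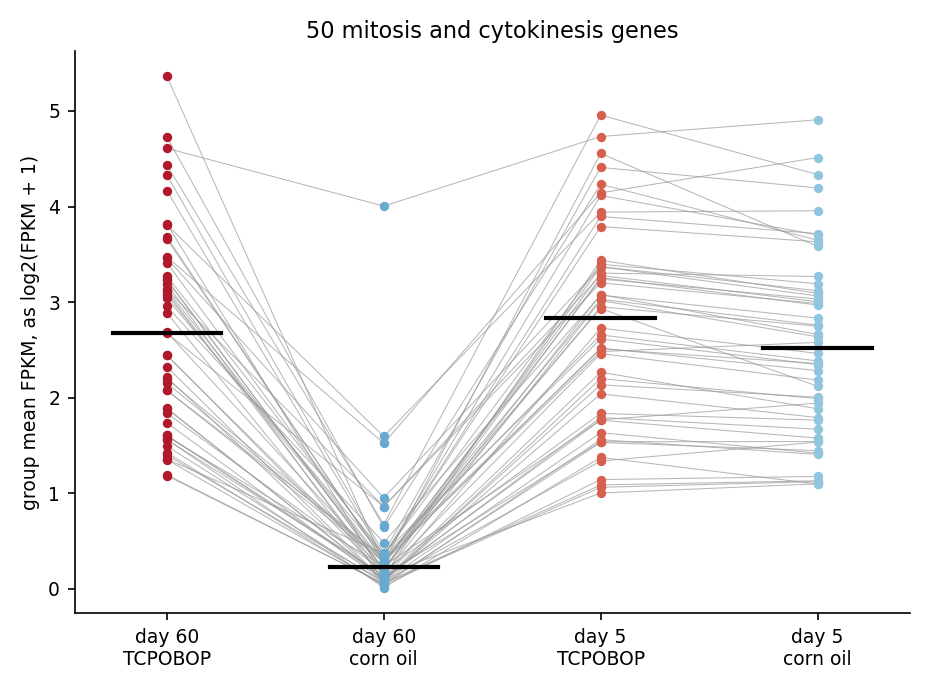
Group mean levels of 50 mitosis and cytokinesis genes, as log2(FPKM + 1), in day 60 TCPOBOP, day 60 corn oil, day 5 TCPOBOP and day 5 corn oil livers. Grey lines join the values of a gene and black bars mark medians (5.41, 0.174, 6.13 and 4.74 FPKM in that order), so the adult corn oil group stands apart from the other 3.

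Genes of DNA synthesis also had mostly higher responses in adults, but most stayed below the newborn level with TCPOBOP. Adult TCPOBOP livers averaged below newborn TCPOBOP livers for 33 of 35 DNA replication genes, against 27 of 50 mitosis genes and 7141 of all 12282. Of 35 tested DNA replication genes 31 had a higher response in adults and 1 a lower one (median 0.85). TCPOBOP raised 34 and lowered 1 in adults, and raised 19 and lowered 0 in newborns. Rrm2, a subunit of the enzyme that makes deoxyribonucleotides, had 46.9, 40.2 and 32.1 FPKM in day 60 TCPOBOP livers against 1.37, 1.55 and 1.13 FPKM with corn oil. Newborn livers had 31.0, 28.5 and 25.7 FPKM with TCPOBOP against 12.4, 16.0 and 18.3 FPKM with corn oil (3.26 ± 0.22, adjusted p = 1.13e-09). Rrm2 was thus an exception, with a higher level in adult than in newborn TCPOBOP livers. Subunits of the replicative helicase also had a higher response in adults, for example Mcm5 (1.94 ± 0.15) and Mcm6 (2.47 ± 0.25), as did Pcna, the sliding clamp (1.18 ± 0.16).

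Of 23 genes of G1 and cell cycle entry, 13 had a higher response in adults and 0 a lower one. Ccnd1, which encodes cyclin D1, the G1 cyclin of hepatocytes (chr7:144929931-144939925, mm10), was called in opposite directions. It rose to 27.3, 26.3 and 24.1 FPKM in day 60 TCPOBOP livers against 6.58, 7.55 and 6.30 FPKM with corn oil, and fell in newborns to 18.6, 12.35 and 15.1 FPKM against 17.7, 20.2 and 25.2 FPKM with corn oil. The adult groups were far apart and the newborn groups overlapped slightly, and the response difference was 2.22 ± 0.21 (adjusted p = 1.34e-07). Spc25, a kinetochore gene of the mitosis list and its only member lowered in newborns, was likewise raised in adults (1.96) and lowered in newborns (-0.37). Gadd45b, a stress gene that CAR agonists are known to raise, rose at both ages and more so in adults, to 28.3, 32.6 and 26.9 FPKM against 0.312, 0.534 and 0.909 FPKM, and in newborns to 10.04, 10.75 and 12.3 FPKM against 2.77, 2.28 and 2.09 FPKM (2.44 ± 0.35, adjusted p = 2.81e-05). Erythroid markers, whose cells divide in newborn liver, summed to 928 to 1525 FPKM in day 60 TCPOBOP and 1860 to 2467 FPKM in day 60 corn oil livers, and to 6848 to 8447 FPKM in day 5 TCPOBOP and 5855 to 8225 FPKM in day 5 corn oil livers. Of 20 erythroid markers tested, 8 had a lower and 2 a higher response in adults (15 lower without day 5 corn oil replicate 3, and 5 lower without the libraries with pancreatic transcripts). However, 10 of the 20 averaged under 1 FPKM in both adult groups, and Rhag and Kel were listed at 0 in every adult library. Kupffer cell and macrophage markers summed to 384 to 407, 412 to 451, 999 to 1201 and 906 to 926 FPKM in the same 4 groups. The part of these cells in the newborn level of cell cycle genes was not tested.

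The most negative called response differences were in the hepcidin genes, which moved in opposite directions. Hamp encodes hepcidin, the hormone that blocks iron export from cells (chr7:30942369-30944017, mm10). It fell in adults to 227, 172 and 187 FPKM with TCPOBOP against 1839, 833 and 846 FPKM with corn oil. It rose in newborns to 40.2, 66.6 and 42.2 FPKM with TCPOBOP against 2.39, 3.24 and 4.32 FPKM with corn oil. Adult corn oil livers thus held the highest and newborn corn oil livers the lowest level, TCPOBOP groups lay between them, and the response difference was -6.03 ± 1.22 (adjusted p = 0.00152). Hamp2, the neighbouring second hepcidin gene (chr7:30922372-30924181, mm10), fell to 9.28, 9.72 and 17.6 FPKM in day 60 TCPOBOP livers against 94.4, 157 and 201 FPKM with corn oil. In newborns it rose to 3.75, 6.57 and 3.85 FPKM against 0.577, 0.606 and 0.708 FPKM with corn oil (-5.29 ± 0.55, adjusted p = 1.19e-06). Tfrc, the transferrin receptor for iron uptake and also one of the erythroid markers, rose in adults to 28.8, 33.0 and 33.0 FPKM against 7.27, 8.04 and 6.19 FPKM, and was not called in newborns, with 47.7, 31.7 and 41.1 FPKM against 41.5, 47.6 and 48.5 FPKM (2.20 ± 0.33, adjusted p = 5.2e-05).

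Several other genes shared that order of the 4 groups, with a high adult and a low newborn corn oil level. Cyp7b1, an oxysterol hydroxylase of bile acid synthesis (chr3:18071950-18243338, mm10), fell to 20.8, 14.7 and 20.2 FPKM in day 60 TCPOBOP livers against 166, 100 and 66.3 FPKM with corn oil. It rose in newborns to 2.75, 2.997 and 2.987 FPKM against 0.875, 0.778 and 0.605 FPKM (-3.59 ± 0.31, adjusted p = 5.08e-08). Elovl3, a fatty acid elongase of male liver, fell in adults to 63.8, 47.1 and 88.8 FPKM against 309, 214 and 97.0 FPKM and rose in newborns to 1.02, 0.842 and 1.26 FPKM against at most 0.048 FPKM (-2.5 ± 0.38, adjusted p = 6.2e-05, and -4.72 with a pseudocount of 0.1). Cyp27a1, the mitochondrial sterol hydroxylase (chr1:74713574-74737890, mm10), had 190, 186 and 169 FPKM in day 60 TCPOBOP livers against 226, 242 and 241 FPKM with corn oil, and 54.2, 70.0 and 63.8 FPKM in day 5 TCPOBOP livers against 18.7, 16.9 and 13.1 FPKM with corn oil (-2.27 ± 0.16, adjusted p = 1.03e-09). Baat, which conjugates bile acids with taurine, had 97.9, 96.3 and 98.9 FPKM in day 60 TCPOBOP livers against 137, 135 and 127 FPKM with corn oil, and 26.0, 20.5 and 29.9 FPKM in day 5 TCPOBOP livers against 8.76, 9.11 and 6.92 FPKM with corn oil (-1.95 ± 0.18, adjusted p = 1.01e-07). For both genes the adult fall was small and the newborn rise made most of the difference. Among 15 tested bile acid synthesis genes 8 had a lower and 1 a higher response in adults, 4 with opposite calls (the other one being Akr1c6), and Akr1d1, which reduces the sterol ring, was the higher one (1.33 ± 0.20). Cyp39a1, an oxysterol hydroxylase of the brain and liver, rose at both ages (1.85 and 1.81) without a called difference.

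**Figure D4:**
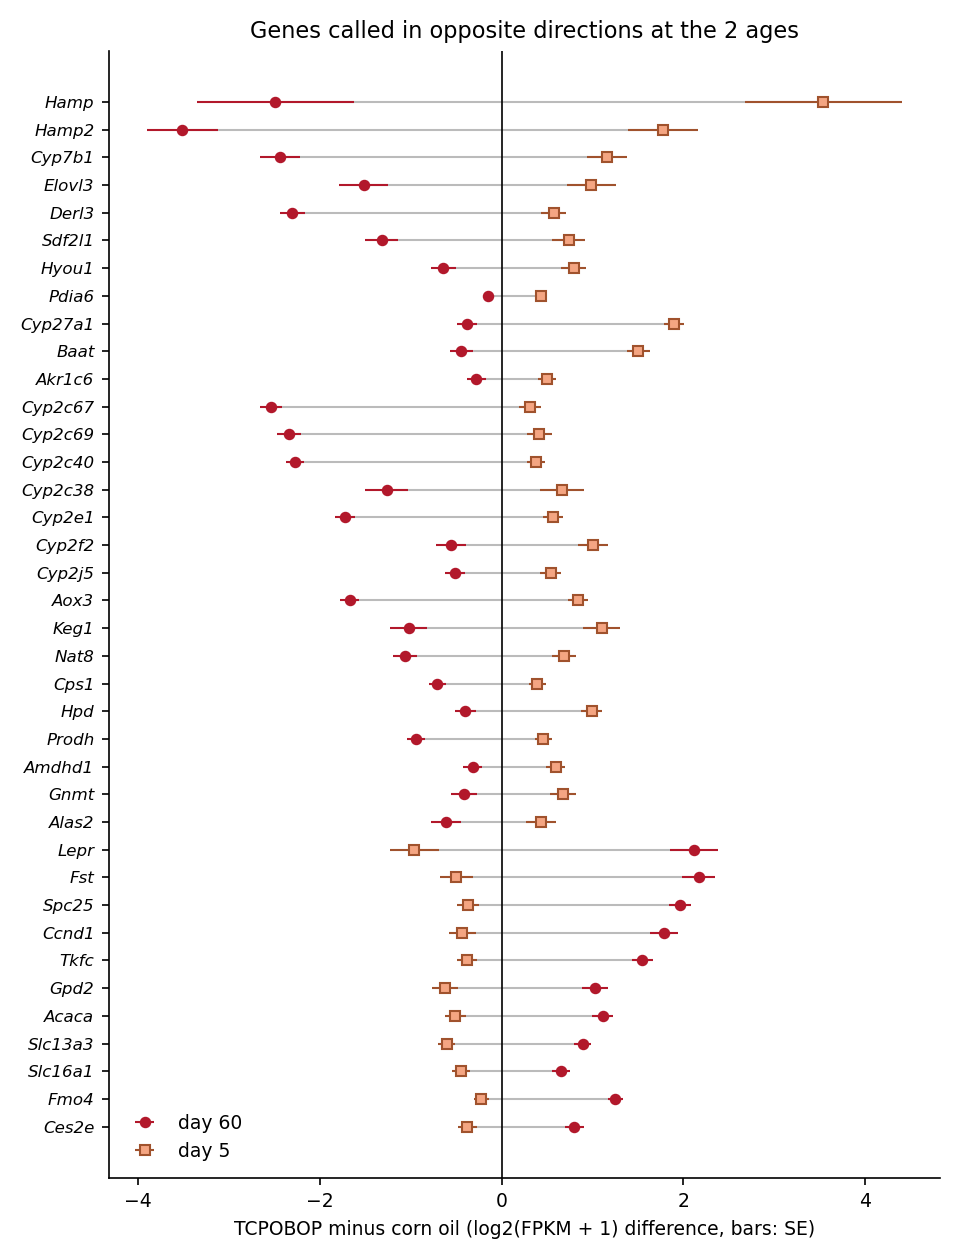
TCPOBOP response at day 60 (circles) and day 5 (squares) of named genes that were called in opposite directions at the 2 ages, as log2(FPKM + 1) differences from corn oil with SE bars. Genes from Hamp to Alas2 were lowered at day 60 and raised at day 5, and genes from Lepr to Ces2e were raised at day 60 and lowered at day 5.

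Chaperones of the endoplasmic reticulum also split by age. Of 23 genes of the unfolded protein and integrated stress response, 15 had a lower and 2 a higher response in adults (median -0.72). Adults lowered 10 and raised 2, and newborns raised 7 and lowered 2. Sdf2l1, a chaperone cofactor, fell in adults to 20.55, 18.1 and 19.3 FPKM with TCPOBOP against 73.4, 38.6 and 42.8 FPKM with corn oil, and rose in newborns to 13.7, 13.3 and 11.7 FPKM against 5.98, 8.55 and 7.62 FPKM (-2.06 ± 0.26, adjusted p = 5.1e-06). Hyou1, a large chaperone of the same compartment, fell to 54.7, 54.2 and 52.7 FPKM against 120, 72.3 and 69.3 FPKM in adults and rose to 36.9, 35.5 and 33.6 FPKM against 19.1, 20.9 and 19.8 FPKM in newborns (-1.43 ± 0.20, adjusted p = 1.33e-05). Corn oil replicate 1 at day 60 was the highest library for both, and without it the response differences were -1.78 and -1.18 and stayed called. Pdia6, a disulfide isomerase, was lowered in adults by 0.15 and raised in newborns by 0.44, and outside the list Derl3, which helps export misfolded proteins (chr10:75893398-75895941, mm10), fell by 2.30 in adults and rose by 0.57 in newborns. Creld2 fell in adults (-1.59) and was not called in newborns (0.45), and Hspa5, the chaperone BiP, had -0.48 (called) in adults and 0.41 (not called) in newborns. Without day 60 corn oil replicate 1 the response difference of Hspa5 shrank to -0.61 and stayed called (limma adjusted p = 0.0196). That of Hsp90b1, another chaperone of the list, was then no longer called (-0.65, limma adjusted p = 0.0846).

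The stress element of such promoters is known as CCAAT and CCACG separated by 9 bases. It is shown in capitals in the 250 bases before the first RefSeq start (GRCm38.p6, 5′ to 3′ on the gene's strand) of 3 list members with a called response difference: Hspa5 (chr2:34771840-34772089, plus strand), Creld2 (chr15:88819396-88819645, plus strand) and Pdia6 (chr12:17266339-17266588, plus strand).
Hspa5: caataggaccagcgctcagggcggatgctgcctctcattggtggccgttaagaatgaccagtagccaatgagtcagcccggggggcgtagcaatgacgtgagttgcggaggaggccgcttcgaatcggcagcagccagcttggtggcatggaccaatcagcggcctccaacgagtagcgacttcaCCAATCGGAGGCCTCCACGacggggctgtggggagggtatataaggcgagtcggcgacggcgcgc
Creld2: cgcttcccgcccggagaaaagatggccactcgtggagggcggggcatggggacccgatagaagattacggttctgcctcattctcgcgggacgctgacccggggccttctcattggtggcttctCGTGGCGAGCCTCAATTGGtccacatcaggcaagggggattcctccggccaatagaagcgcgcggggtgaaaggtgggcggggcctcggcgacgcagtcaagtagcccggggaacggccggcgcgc
Pdia6: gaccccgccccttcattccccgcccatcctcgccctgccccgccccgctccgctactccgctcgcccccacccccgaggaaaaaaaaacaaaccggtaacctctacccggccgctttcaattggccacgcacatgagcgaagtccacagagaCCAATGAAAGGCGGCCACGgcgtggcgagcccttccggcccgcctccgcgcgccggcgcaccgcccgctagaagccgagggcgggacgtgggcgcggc
The element, searched on both strands with any letters at the 9 bases, was found in this window in 6 of 21 list members with a RefSeq promoter (28.6%) and in 33 of 27025 genes (0.122%). The 6 are Hspa5, Hsp90b1, Pdia6, Creld2, Dnajc3 and Calr. A match describes the letters and not the binding of a factor.

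Genes of amino acid breakdown and ammonia disposal, which adult liver expresses mainly around portal veins, mostly had a lower response in adults, in many of them a fall. Of 25 tested periportal and urea cycle genes 16 had a lower and 0 a higher response in adults (median -0.60), and 5 had opposite calls. Adults lowered 13 and raised 3, and newborns raised 12 and lowered 1. Cps1, the entry enzyme of the urea cycle, had 410, 404 and 418 FPKM in day 60 TCPOBOP livers against 671, 659 and 678 FPKM with corn oil, and 269, 275 and 285 FPKM in day 5 TCPOBOP livers against 192, 215 and 224 FPKM with corn oil. The groups were apart at both ages and the response difference was -1.10 ± 0.13 (adjusted p = 2.46e-06). Hpd, of tyrosine breakdown, was lowered in adults (-0.40) and raised in newborns (0.99), and so were Prodh of proline breakdown (-0.94 and 0.46) and Amdhd1 of histidine breakdown (-0.32 and 0.60). Gnmt, which disposes of excess methionine, was lowered in adults (-0.42) and raised in newborns (0.67), within a methionine cycle and methyltransferase list of 22 genes with 13 lower and 5 higher responses in adults. Among 8 genes of amino acid and glycine conjugation 6 had a lower and 0 a higher response, and Keg1 and Nat8 had opposite calls. Aox3, an aldehyde oxidase gene of the phase I list, fell to 54.1, 54.5 and 55.2 FPKM in day 60 TCPOBOP livers against 203, 182 and 148 FPKM and rose to 45.0, 49.4 and 50.7 FPKM in newborns against 29.9, 27.8 and 22.4 FPKM (-2.51 ± 0.15, adjusted p = 1.59e-10). In a list of 14 hepatocyte markers 9 had a lower and 0 a higher response in adults, with Alb, the albumin gene, at -1.32 in adults and -0.60 in newborns. Adults lowered 9 and raised 1 of the 14 markers, while newborns lowered 3 and raised 5 (median response -0.01). Summed marker levels weigh abundant genes such as Alb most. In adults the hepatocyte marker sums and the summed periportal and urea cycle genes (4958 to 5027 FPKM with TCPOBOP and 6595 to 7025 FPKM with corn oil) were both lower with TCPOBOP. In newborns the marker sums were lower and the summed periportal genes higher with TCPOBOP (2874 to 3076 FPKM, against 2255 to 2617 FPKM with corn oil).

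Several genes of lipid synthesis rose in adults and were not called higher in newborns. Of 25 lipogenesis and lipid droplet genes 10 had a higher and 0 a lower response in adults (median 0.45). Adults raised 11 and lowered 8, and newborns raised 6 and lowered 10. Acaca, acetyl-CoA carboxylase, rose in adults to 21.9, 21.9 and 19.8 FPKM against 10.87, 7.93 and 9.18 FPKM with corn oil, and fell in newborns to 5.81, 6.87 and 5.88 FPKM against 10.22, 9.33 and 8.19 FPKM (1.62 ± 0.16, adjusted p = 2.27e-07). Elovl6, a fatty acid elongase, had 69.6, 74.3 and 74.8 FPKM in day 60 TCPOBOP livers against 13.1, 8.80 and 11.59 FPKM with corn oil, while its newborn levels of 3.38, 2.09 and 3.26 FPKM with TCPOBOP and 3.57, 2.49 and 1.83 FPKM with corn oil overlapped (2.5 ± 0.28, adjusted p = 1.36e-06). Fasn, fatty acid synthase (1.67 ± 0.37), and Pklr, liver pyruvate kinase (2.25 ± 0.31), also rose in adults and were not called in newborns. Scd1, a desaturase, was called at neither age. Of the lipogenesis list 1 gene was called in opposite directions. In a list of 23 genes of glucose production and use, 6 had a higher and 4 a lower response in adults, with a median response difference of 0.03, against 0.03 over all genes.

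Other genes raised in adults and lowered in newborns were spread over several functions. Lepr, the leptin receptor gene, had 8.10, 7.49 and 4.31 FPKM in day 60 TCPOBOP livers against 0.502, 0.756 and 0.903 FPKM with corn oil, and 14.45, 12.7 and 16.1 FPKM in day 5 TCPOBOP livers against 48.9, 30.8 and 15.8 FPKM with corn oil. Its newborn corn oil libraries were widely spread and touched the TCPOBOP range (3.08 ± 0.38, adjusted p = 5.59e-06). Fst, which encodes follistatin, a secreted binder of activin, had responses of 2.17 in adults and -0.50 in newborns. Tkfc, which phosphorylates glyceraldehyde from fructose, had 1.55 and -0.38, Gpd2 of the glycerol phosphate shuttle 1.03 and -0.63, and the citrate and succinate carrier gene Slc13a3 0.89 and -0.60. Slc16a1, which carries lactate, Fmo4 and the carboxylesterase gene Ces2e were called in the same directions.

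Changes in newborns alone included fetal and growth genes, most of which adults barely express. Of 19 tested fetal and imprinted growth genes 10 had a higher and 1 a lower response in adults. Newborns lowered 9 and raised 2, adults lowered 2 and raised 5, and 10 of the 19 averaged under 1 FPKM in both adult groups. Afp, alpha-fetoprotein, had at most 0.626 FPKM in day 60 TCPOBOP and at most 0.548 FPKM in day 60 corn oil livers, and 1619, 1943 and 1429 FPKM in day 5 TCPOBOP livers against 3315, 4333 and 3685 FPKM with corn oil (1.35 ± 0.20, adjusted p = 3.92e-05). Igf2, a fetal growth factor, fell in newborns to 754, 608 and 725 FPKM against 1473, 1287 and 1491 FPKM, and was at most 0.125 FPKM in adults (1.0 ± 0.12, adjusted p = 3.52e-06). With a pseudocount of 0.1 the Igf2 difference was 0.84 and no longer called (adjusted p = 0.0749). H19, the RNA of the neighbouring imprinted gene, was not called at either age, with newborn levels of 5945, 5056 and 6316 FPKM with TCPOBOP and 6440, 6622 and 6832 FPKM with corn oil. For all 3 genes the adult livers have too little RNA to show a fall. Outside the list, Dnaic1, a ciliary dynein gene, fell in newborns to 0.483, 0.551 and 0.433 FPKM against 9.11, 9.05 and 7.67 FPKM (2.51 ± 0.14, adjusted p = 7.91e-11), and Akr1c18, a progesterone-reducing enzyme, fell to 19.5, 25.8 and 13.2 FPKM against 75.5, 81.9 and 57.9 FPKM (1.86 ± 0.27).

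Rises in newborns alone were of both kinds, in genes silent in adults and in genes that adults already expressed at a high level. Cldn10, a tight junction gene, rose in newborns to 6.26, 3.81 and 7.52 FPKM against 0.105, 0.245 and 0.061 FPKM and was at most 0.101 FPKM in adults (-2.60 ± 0.18, adjusted p = 1.3e-09, and -4.98 with a pseudocount of 0.1). Upp2, uridine phosphorylase, rose in newborns to 58.4, 78.2 and 64.0 FPKM against 8.85, 10.68 and 10.29 FPKM, while adults had 87.6, 75.1 and 80.5 FPKM with TCPOBOP and 44.0, 78.5 and 108 FPKM with corn oil, which overlap (-2.46 ± 0.29, adjusted p = 2.83e-06). TCPOBOP thus brought newborns near the adult level of Upp2. Orm1, an acute phase glycoprotein of plasma, rose in newborns to 67.7, 40.9 and 80.8 FPKM against 3.84, 6.69 and 4.49 FPKM and stayed at 1118 to 1326 FPKM with TCPOBOP and 1045 to 1168 FPKM with corn oil in adults. Its response difference of -3.23 ± 1.01 (adjusted p = 0.0282) was lost in 5 of the 12 fits that left out 1 library (adjusted p 0.0518 to 0.0628: day 5 corn oil replicate 1, day 5 TCPOBOP replicate 1 or 3, day 60 corn oil replicate 3, day 60 TCPOBOP replicate 1). In a list of 27 acute phase genes with the hepcidins, 12 had a lower and 2 a higher response in adults.

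Nearly all genes of the ribosome and the proteasome rose at both ages, most of them without a called response difference. Of 46 cytosolic ribosomal protein genes TCPOBOP raised 45 at each age, and the response was higher in adults for 6 and lower for 0, beside a background of 13.7% and 9.76%. The 6 were 3 without the libraries with pancreatic transcripts, without day 60 TCPOBOP replicate 2 or without day 60 corn oil replicate 3. Of 32 proteasome subunit genes it raised 31 at each age, with 9 lower and 1 higher in adults, and 3 lower without the libraries with pancreatic transcripts or without day 60 corn oil replicate 2, and 5 lower without day 5 TCPOBOP replicate 3 or day 5 corn oil replicate 1. Of 25 cholesterol synthesis genes 20 rose in adults and 13 in newborns, against 31.4% and 24.6% of all genes. Their response was higher in adults for 2 and lower for 2, which is not above the background. Of 38 PPARa targets and beta oxidation genes, adults lowered 24 and newborns 23, against 15.8% and 11.3% of all genes. Among them 10 had a higher and 7 a lower response in adults (3 lower without the libraries with pancreatic transcripts).

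**Figure D5:**
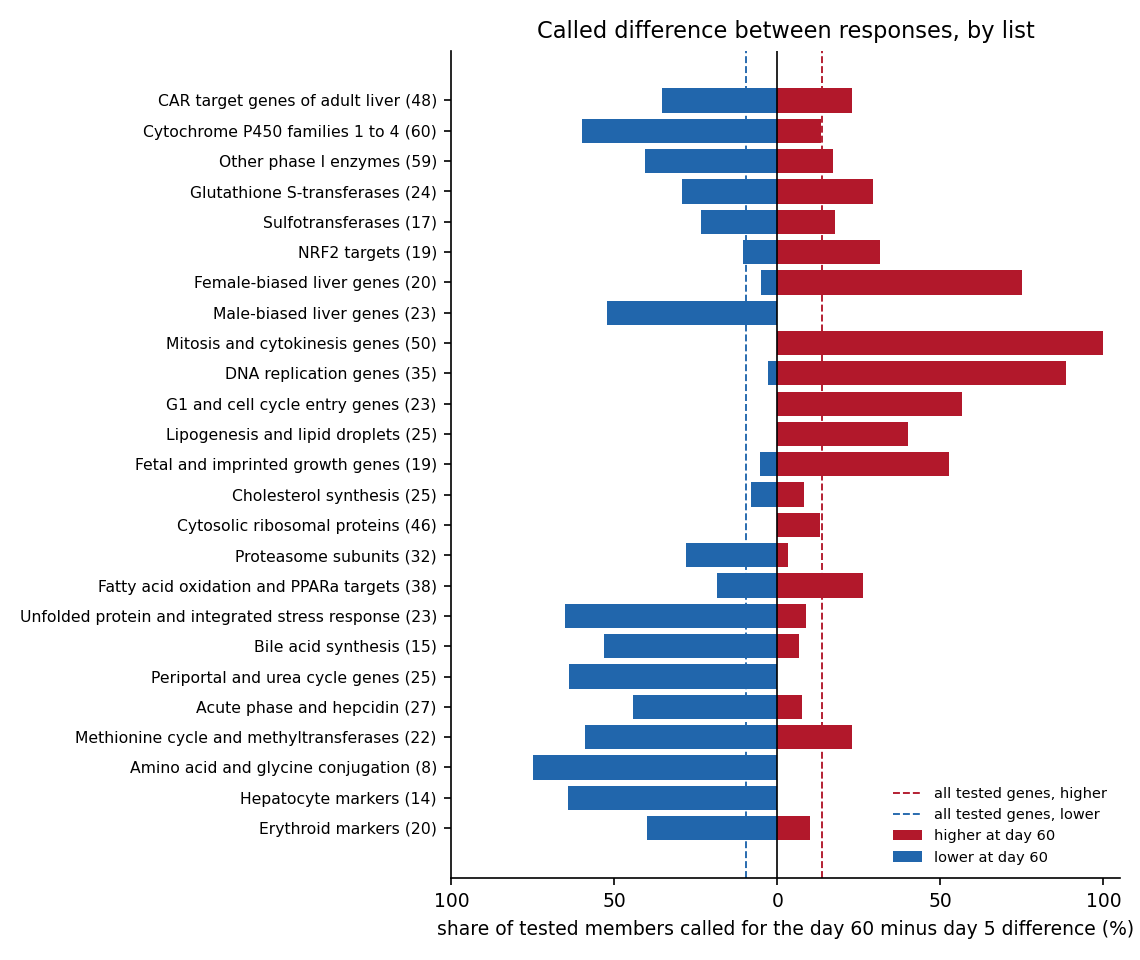
Share of tested members of each list (number in brackets) whose TCPOBOP response was called higher (red, right) or lower (blue, left) at day 60 than at day 5, in percent. Dashed lines mark the shares over all tested genes, 13.7% higher and 9.76% lower. Mitosis, DNA replication and female-biased genes extend furthest to the right and amino acid conjugation, stress response, hepatocyte and periportal lists furthest to the left.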

How the data were processed

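RNA of liver was sequenced from a stranded mRNA kit, per the labels' protocols, and each library has a table of FPKM values per gene that the authors deposited. The genome build is mm10, per the submitters' processing notes, and the aligner, the annotation and the method that estimated FPKM are not given in the sources used here. Entries of one symbol were summed, which joined 279 symbols listed at several loci, and 5 genes with a failed estimate were left out. A gene was tested if it reached 1 FPKM in 3 or more of the 24 libraries (12282 of 24339), and values were taken as log2(FPKM + 1). limma 3.58.1 in R 4.3.3 was used with a variance trend and robust moderation, in 1 model of 8 groups and 24 libraries (3 each, 16 residual degrees of freedom). The response difference is the contrast of both ages' TCPOBOP minus corn oil differences, with Benjamini-Hochberg adjustment over all tested genes. FPKM values carry no counts, so no interval for counting error is given, and fold changes of genes near 1 FPKM are understated on this scale.

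Gene lists (46) were made by hand from general knowledge. The members and lists were chosen with earlier results of these data known. Genes named in the text are Nr1i3, Nr1i2 and Cyp2b10, the 12 most positive and 12 most negative called differences at 5 FPKM or more in some group, the 6 largest per combination of calls at the 2 ages, and from each list up to 6 called members, up to 3 uncalled ones, up to 3 of the highest expressed ones and those with opposite calls. Dnajc3, Rhag and Kel stand beside them as a motif match and as markers. The alternatives were another scaling, a pseudocount of 0.1, no filter and a filter at 5 FPKM, a replicate block, the 12 wild type libraries alone, array weights, no trend, a 2-fold rule, each library left out in turn and, chosen after seeing the data, 3 libraries with pancreatic transcripts left out. The script was tested on simulated data. Promoters come from RefSeq and figures were drawn with matplotlib 3.10.9.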

Additional observations from a re-analysis of the deposited data

Results flagged for a closer look

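The response to TCPOBOP differed between day 60 and day 5 by the test of the difference itself (the limma contrast of both responses) for 2879 genes. This call is itself the criterion of an effect that differs between 2 ages, so meeting it adds no further support. Among the 2879 genes, 194 had opposite calls at the 2 ages (124 without the libraries with pancreatic transcripts). Of those with the largest differences on the log2 scale, Hamp (-6.03), Hamp2 (-5.29), Cyp7b1 (-3.59), Derl3 (-2.88), Cyp2c67 (-2.85) and Cyp2c69 (-2.75) were lower in TCPOBOP than in corn oil livers at day 60 and higher at day 5. Lepr (3.08), Fst (2.66), Spc25 (2.33), Ccnd1 (2.22), Tkfc (1.93) and Gpd2 (1.65) were higher in TCPOBOP livers at day 60 and lower at day 5. Groups of 3 libraries are too small for a check of single outlying samples.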

How the results depend on the processing

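The count of 2879 genes with a called response difference ran from 2385 to 2828 when 1 library was left out, and was 2991 with rescaled FPKM, 2840 with a pseudocount of 0.1, 3039 with no filter, 2142 with a filter at 5 FPKM, 2919 with the 12 wild type libraries alone and 2886 without trend and robust moderation. Array weights gave 5037 genes (2796 higher and 2241 lower at day 60) and 6665 genes called at day 5. A rule that also asks for a 2-fold difference gave 534 (342 higher, 192 lower), with 834 called at day 60 and 391 at day 5. Without the 3 libraries with pancreatic transcripts, chosen after seeing the data, 2165 were called, 778 of them lower at day 60, with fewer samples in the fit, and 2074 of the 2879 kept their call. Rescaling moved the median response difference of all genes from 0.03 to -0.001. With a pseudocount of 0.1, Sult2a1 turned from -0.43 to 2.33 because it lies near 0 in adult corn oil livers, and Fgf21, a hormone of fasting, lost its call (adjusted p = 0.199). Among 278 named genes with a called difference, 226 kept call and direction under every alternative except the 2-fold rule. Of 50 mitosis genes 31 were called with the filter at 5 FPKM, which tests fewer genes. The unknown depth limits genes under 1 FPKM most.

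Same-numbered replicates of different groups had correlations of deviations from -0.14 to 0.264, over 0.1 in 2 of 18 pairs, so the numbers were not taken as pairs. With the replicate block, 2822 genes were called, 2766 of them shared with the 2879.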

Other observations

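Some secreted plasma proteins and ribonucleases fell in adults. Of 34 complement and coagulation genes, adults lowered 20 and raised 7, against 15.8% and 31.4% of all genes. Newborns lowered 14 and raised 6, against 11.3% and 24.6%. The response was lower at day 60 for 7 and higher for 3, against 9.76% and 13.7%. C8b, a subunit of the membrane attack complex, had 91.4, 93.1 and 110.1 FPKM in day 60 TCPOBOP livers against 243.5, 188.9 and 168.7 FPKM with corn oil, and 38.9, 39.1 and 38.6 FPKM in day 5 TCPOBOP livers against 29.9, 34.7 and 45.3 FPKM with corn oil (-1.11 ± 0.17, limma adjusted p = 5.09e-05). Rnase4 and Ang, neighbouring ribonuclease genes that share a locus, fell at both ages and further in adults (-1.41 ± 0.21 and -1.17 ± 0.17). Rnase4 had 60.5, 52.0 and 66.3 FPKM in day 60 TCPOBOP livers against 415, 573 and 650.3 FPKM with corn oil, and 138.5, 136.8 and 163.4 FPKM in day 5 TCPOBOP livers against 597, 535 and 369 FPKM with corn oil.

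In the growth hormone axis, Ghr, the growth hormone receptor gene, fell at both ages, with responses of -1.32 at day 60 and -0.75 at day 5 and an uncalled difference (-0.58 ± 0.23, limma adjusted p = 0.0791). In heme synthesis, Alas1, the rate-limiting enzyme, rose at both ages (2.14 and 3.09) without a called difference, and Cpox, coproporphyrinogen oxidase, fell at both ages and further in adults (-0.75 ± 0.11, limma adjusted p = 4.53e-05). Slc10a2, a bile acid uptake carrier, rose in adults to 28.8, 27.3 and 25.7 FPKM against 4.57, 5.59 and 4.36 FPKM with corn oil and was at most 0.345 FPKM in each newborn library (2.04 ± 0.17, limma adjusted p = 1.08e-08, and 1.24 with a pseudocount of 0.1). Among 16 hepatic stellate cell markers newborns lowered 9 and raised 0, against 11.3% and 24.6% of all genes. Adults lowered 4 and raised 3, against 15.8% and 31.4%. Lrat, which makes retinyl esters, fell in newborns to 3.47, 2.45 and 2.96 FPKM against 6.94, 6.59 and 6.80 FPKM (1.05 ± 0.20, limma adjusted p = 0.000607).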
